A study of Mus musculus with 2 samples.

Results

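The Hox genes and their even-skipped neighbours Evx1 and Evx2 were described in the ureter of mouse embryos on 2 two-colour Agilent arrays. The members were all non-control probes whose gene name in the scanner files is Hoxa, Hoxb, Hoxc or Hoxd followed by a number alone, together with those of Evx1 and Evx2. This gave 46 of 39429 probes, which stand for 41 genes: 11 of Hoxa, 10 of Hoxb, 9 of Hoxc, 9 of Hoxd and both Evx genes. Of these, 36 could be tested, among 21238 genes tested in all. Ureters were taken at E14.5, a stage in embryonic days, from NMRI mice. Each array set RNA of Smad4cKO (UM) embryos, Tbx18(cre/+);Smad4(fl/fl), against RNA of control embryos, Tbx18(+/+);Smad4(fl/+). Cre is made from the Tbx18 locus, which is active in the ureteric mesenchyme, so other cells of the ureter keep Smad4. Both genotypes carry at least 1 floxed Smad4 allele, and the mutants alone carry a Tbx18 allele with Cre. Array 1 held a female pair with the labelled control read in red, and array 2 a male pair with the dyes the other way round. Effects of dye and of sex therefore cannot be told apart. The labels do not give the number of embryos or litters per RNA. The errors therefore measure only the spread between these arrays, taken largely over all genes rather than for each gene alone. How much of that spread is technical is not known, since the arrays also differ in sex, dye and RNA pair.

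Hox genes encode homeodomain transcription factors that give cells their position along the body axis. In mammals they lie in 4 clusters, and genes at the same place in different clusters are paralogues with the same number. Low numbers are used towards the head and high numbers towards the tail, with Evx1 beyond the high end of the Hoxa cluster and Evx2 beyond that of Hoxd. In the urogenital system the paralogues with high numbers pattern the kidney, the ducts, the bladder and the external genitalia. SMAD4 is the shared partner of the receptor-activated SMAD proteins in BMP and TGFB signalling.

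Each member was read by probes of 60 bases, with a GC content of 30% to 60%. Probes of different members shared no run longer than 11 bases, although Hox genes are alike in their homeobox. The first 30 bases of 6 probes are shown, because the values below turn on them and because Hoxd11 and Hoxa13 were each read by a pair of probes. They are given in lower case, 5′ to 3′, as the scanner files list them. The files place the Evx1 probe at chromosome 6, 52268298 to 52268357 (mm9), and the Hoxd12 probe at chromosome 2, 74515664 to 74515723. The Hoxd11 probe for the RefSeq transcript lies at chromosome 2, 74522136 to 74522195. The other, designed for the cDNA AK054090, lies 2.88 kb further on, at 74525014 to 74525073, and 7.27 kb before the Hoxd10 probe. Which exon or UTR these positions fall in was not analysed here.
Evx1: gcagcccaaagaatttgctgttatgatttg
Hoxd12: cctgtgctaacagttgccgtttatgttttg
Hoxd11, RefSeq transcript: aaagaaaagaaactgaacagggaccgtctg
Hoxd11, AK054090: attaaacggcttttgtttaaaacagattag
Hoxa13, brighter probe: acaaattcattaccaaggacaaacggagga
Hoxa13, dimmer probe: gaccactagttaatggattaaaaggtggag

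All values are log2 ratios of the channel labelled Smad4cKO over the channel labelled control, by the dye labels. "Dimmer" and "brighter" always refer to the channel labelled Smad4cKO. The authors' deposited table, read as titled, has the opposite direction: Evx1 stands there at a signed fold of 3.19 and 3.61. Were the labels of the dyes the wrong way round, each direction below would turn while sizes and tests stayed. Smad4 itself had ratios of -0.69 and -0.14, and of -0.31 and -0.49 by another probe. These check the labels only if the probes lie in the deleted stretch, which the labels do not describe. Of 10 markers of ureteric mesenchyme and smooth muscle, 9 were brighter on both arrays and 1 dimmer, as given below. Whether the dye labels are exchanged was not tested. Between 68.3% and 70.3% of spots were well above background in the 4 channels, no spot was saturated, and the number of arrays limits the precision.

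Evx1, Hoxd12 and Hoxd11 were dimmer in the channel labelled Smad4cKO, and so, by less, were Hoxd13, Hoxd10, Hoxd4, Hoxd1 and Hoxa13. Hoxd13 and Hoxd10 stood apart on 1 array each, and most other Hox genes differed little. Evx1 was dimmer by 2.59-fold, Hoxd12 by 1.73-fold and Hoxd11 by 1.59-fold, as the mean of both arrays. These were the 3 of 36 genes that were at least 1.5-fold dimmer on both arrays, a rule met by 0.523% of all genes tested. No Hox or Evx gene was 1.5-fold brighter on both arrays, which 0.49% of all genes were. The 1.5-fold rule carries no test. Across all genes 266 differed by 1.5-fold in opposite directions on the arrays, against 111 dimmer and 104 brighter on both. By any amount, 4209 of all 21238 genes were dimmer on both arrays, 4230 brighter on both and 12799 of opposite sign. The counts by cluster and by list below are to be read beside these.

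Limma with Benjamini-Hochberg adjustment called 0 of the 36 genes, where 0.00471% of all genes (Fndc1 alone) passed the threshold. At an unadjusted p under 0.05 limma had 1085 of all 21238 genes. Among these were 5 of the 36: Evx1, Hoxd12, Hoxd11, Hoxd4 and Hoxa13. All 5 were dimmer on both arrays. With the scanner software's processed signals in place of the normexp and loess values, limma called Evx1 and Hoxd12, where 1.43% of all genes passed. Bulk RNA does not tell fewer cells of a type from less RNA per cell.

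**Figure D1:**
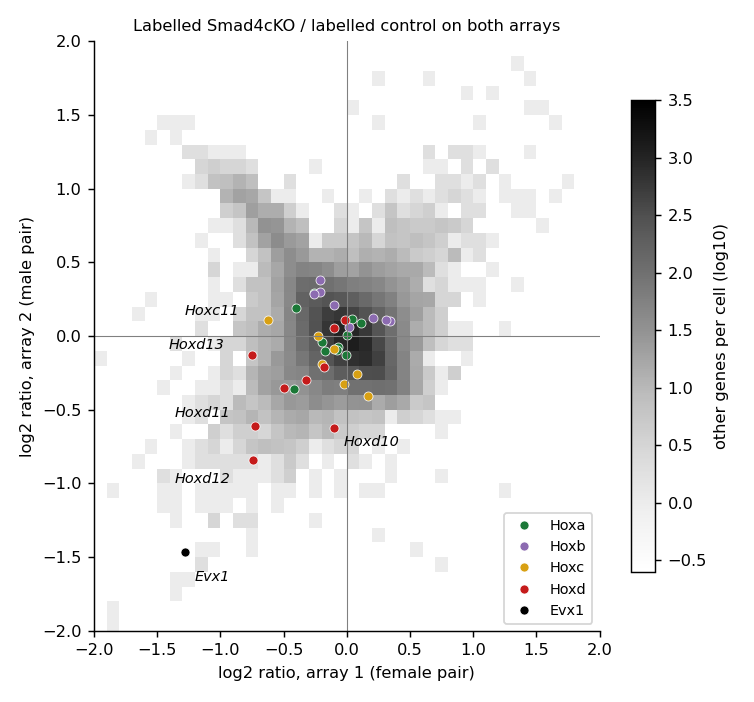
Log2 ratio of the channel labelled Smad4cKO over the channel labelled control on array 1 (female pair, horizontal axis) and array 2 (male pair, vertical axis) for the Hox genes by cluster, Evx1 and, as grey shades for the log10 number of genes per cell, the other genes tested within the axes. Evx1 lies apart from the other members at -1.28 and -1.47, Hoxd12 and Hoxd11 lie low on both arrays, and Hoxd13, Hoxc11 and Hoxd10 on 1 array each.

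Evx1 encodes a homeodomain repressor that acts in the late primitive streak and in spinal interneurons. Its processed signal on array 1 was 126 in the channel labelled Smad4cKO and 402 in the labelled control. On array 2 it was 118 and 428. Both labelled Smad4cKO channels were thus below both labelled control channels, and all 4 were well above background. Here and below, the share of all genes whose groups do not overlap was not counted, so nothing is read from it. The log2 ratio was -1.28 on array 1 and -1.47 on array 2 (mean -1.37 ± 0.14, moderated SE, n = 2, limma adjusted p = 0.0836), with a 95% interval from -1.71 to -1.04. Ordered by the smaller of their ratios on the arrays, Evx1 was in place 7 among all genes dimmer on both. With processed signals its mean was -1.77 (limma adjusted p = 0.000265). The adjusted p of Evx1 ranged from 0.000265 to 1 over the processing alternatives. Evx2, the counterpart next to Hoxd13, was not well above background in any channel, with signals of 6.98 against 8.08 on array 1 and 8.69 against 8.39 on array 2, and is listed at 1 on both arrays in the authors' deposited table.

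The Hoxd genes numbered 10 to 13 were dimmer on both arrays in 4 of 4 cases, with a median log2 ratio of -0.55. Of all genes 19.8% were dimmer on both. This cut was not planned: the planned class was 9 to 13, and the cut leaves out Hoxd9 (mean 0.05). Hoxd1, Hoxd3 and Hoxd4 were dimmer on both arrays too. Hoxd12, one of the genes used in the digits and the genital bud, had processed signals of 1085 in the labelled Smad4cKO and 1825 in the labelled control on array 1. On array 2 they were 1143 and 2099. The channels labelled Smad4cKO were again both below the labelled controls. The log2 ratio of Hoxd12 was -0.74 and -0.84 (mean -0.79 ± 0.13, moderated SE, n = 2, limma adjusted p = 0.181), with a 95% interval from -1.11 to -0.46. It was in place 63 among all genes dimmer on both arrays, by the smaller ratio.

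Hoxd11 acts with Hoxa11 in kidney development and in the forearm. Its brighter probe, the AK054090 probe shown above, had processed signals of 4331 against 7448 on array 1 and 5376 against 7850 on array 2, labelled Smad4cKO first. The groups did not overlap. The log2 ratio was -0.73 and -0.61 (mean -0.67 ± 0.13, moderated SE, n = 2, limma adjusted p = 0.267). The probe for the RefSeq transcript gave a smaller difference in the same direction, -0.22 and -0.47, from signals of 2903 against 3467 and 3106 against 4335. The mean of both Hoxd11 probes was -0.51, and with it Hoxd11 was not past 1.5-fold on both arrays. The call of Hoxd11 by the 1.5-fold rule therefore rests on the probe that lies between the RefSeq probe and the Hoxd10 probe.

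Hoxd13, which is needed for digits, genitalia and the end of the gut, and Hoxd10, used in lumbar motor neurons and the hindlimb, each stood apart on 1 array. Hoxd13 had signals of 388 against 700 on array 1, a log2 ratio of -0.75, but 578 against 611 on array 2, a ratio of -0.13. Hoxd10 had 7620 against 8270 on array 1, a ratio of -0.10, and 7059 against 10892 on array 2, a ratio of -0.63. Which array gave the larger difference thus changed between these cluster neighbours. Their means were -0.44 ± 0.18 for Hoxd13 and -0.36 ± 0.17 for Hoxd10 (moderated SE, n = 2, limma adjusted p = 1 for each). In each of these genes both channels labelled Smad4cKO were below both labelled controls.

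**Figure D2:**
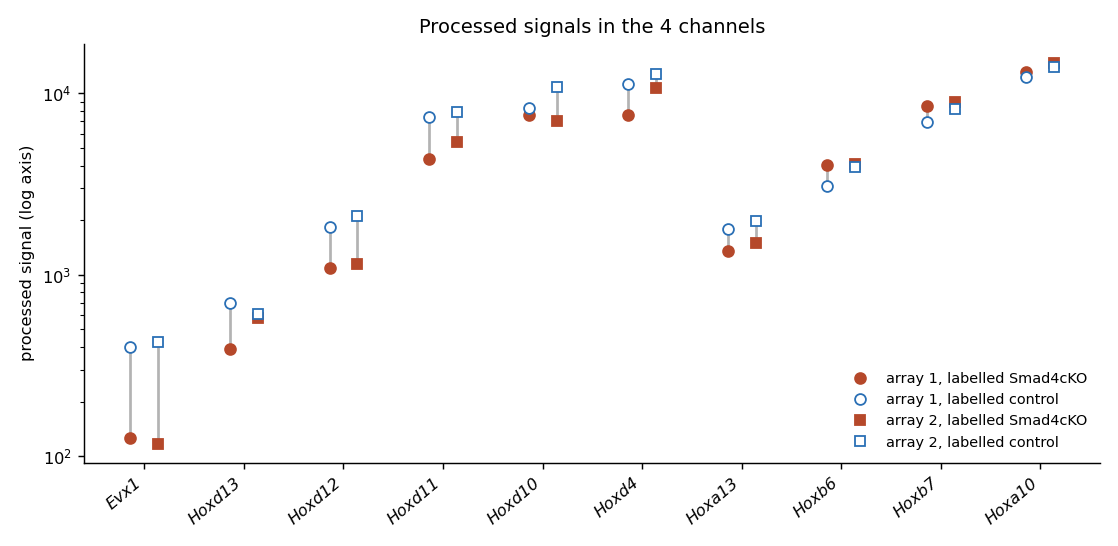
Processed signal (log axis, arbitrary fluorescence units) of 10 Hox and Evx genes in the 4 channels: filled marks are the labelled Smad4cKO, open marks the labelled control, circles array 1, squares array 2, and grey lines join the channels of an array. For Evx1, Hoxd13, Hoxd12, Hoxd11, Hoxd10, Hoxd4 and Hoxa13 both filled marks lie below both open marks. For Hoxb6 and Hoxb7 both filled marks lie above both open marks, and for Hoxa10 the filled mark is the higher on each array. How many of all genes show such a separation was not counted.

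In the centre of the Hoxd cluster Hoxd8 and Hoxd9 were near 0, while Hoxd4 and Hoxd1, towards its low-numbered end, had means close to those of Hoxd13 and Hoxd10. Hoxd4, a gene of the hindbrain and neck, had signals of 7580 against 11261 on array 1 and 10656 against 12849 on array 2. Its log2 ratio was -0.49 and -0.35 (mean -0.42 ± 0.13, moderated SE, n = 2, limma adjusted p = 0.64). Its labelled Smad4cKO channels were below both labelled controls. Hoxd1, known from pain-sensing neurons, gave -0.32 and -0.30, and Hoxd3, a gene of the first vertebrae, gave -0.18 and -0.21. Hoxd8 gave -0.10 and 0.05 (mean -0.03 ± 0.13, moderated SE, n = 2, limma adjusted p = 1), from 4323 against 4623 and 5346 against 5191. It had the smallest absolute mean of the cluster, and its groups overlapped. Hoxd9 gave -0.02 and 0.11. Of the 9 Hoxd genes, 7 were dimmer on both arrays and 2, Hoxd8 and Hoxd9, had opposite signs. The median over the cluster was -0.36, with -0.32 on array 1 and -0.30 on array 2.

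**Figure D3:**
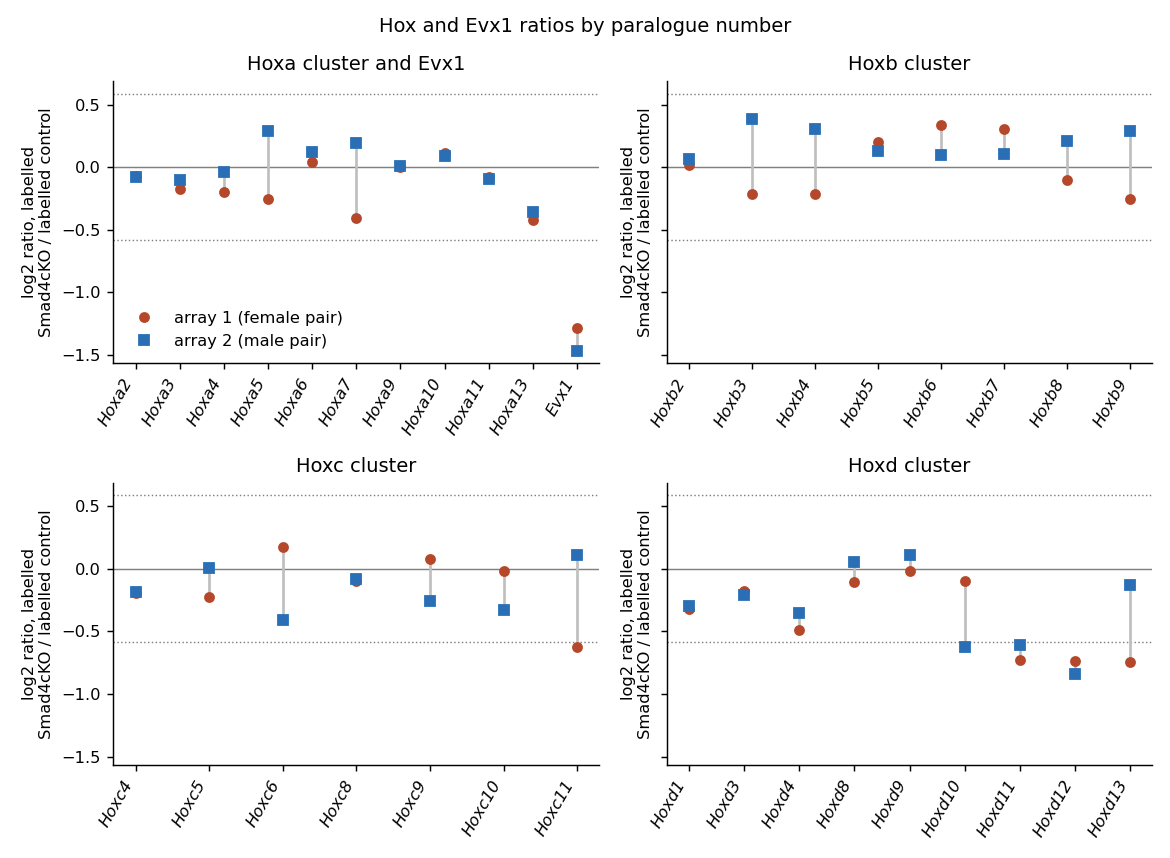
Log2 ratio of the channel labelled Smad4cKO over the channel labelled control for the tested Hox genes described in the text by cluster and paralogue number, with Evx1, on array 1 (circles) and array 2 (squares); grey lines join the arrays and dotted lines mark 1.5-fold. The Hoxd genes 10 to 13, and Hoxd1, Hoxd3 and Hoxd4, lie below 0 on both arrays, and no Hoxb gene does.

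All 11 Hoxa genes were tested, and 6 were dimmer on both arrays, 3 brighter and 2 of opposite sign, with a median of -0.07. Hoxa13, which with Hoxd13 patterns the digits, the end of the gut and the lower urogenital tract, had the largest absolute mean of the cluster. Its brighter probe had signals of 1356 against 1783 on array 1 and 1495 against 1977 on array 2, labelled Smad4cKO first, and the groups did not overlap. The log2 ratio was -0.42 and -0.36 (mean -0.39 ± 0.13, moderated SE, n = 2, limma adjusted p = 0.717). The dimmer probe of Hoxa13 gave -0.50 and -0.31, so both probes had the same direction. The Evx1 probe and the brighter Hoxa13 probe lie 59.3 kb apart. Evx1 and Hoxa13, neighbours on chromosome 6, were thus both dimmer, by different amounts.

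The other Hoxa genes with high numbers did not share this difference. Hoxa11, the partner of Hoxd11 in the kidney, was read by a probe printed 10 times and gave -0.08 and -0.10, with an SD of 0.04 among its spots on each array. Its signals were 7566 against 8136 and 8933 against 9397. Hoxa10, a gene of the uterus, the lumbar vertebrae and the kidney stroma, gave 0.11 and 0.09. Its signals were 13066 against 12343 and 14690 against 13883. Hoxa9 had the smallest absolute mean (0.01 ± 0.13, moderated SE, n = 2, limma adjusted p = 1), with signals of 7736 against 7899 and 9423 against 9070. The second Hoxa9 probe gave 0.18 and -0.14.

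The Hoxa genes with lower numbers differed less than 1.5-fold on either array. Hoxa2, which patterns the second pharyngeal arch, gave -0.07 and -0.08. Hoxa3, needed for the thymus and parathyroid, gave -0.17 and -0.10, and Hoxa4 gave -0.20 and -0.04. Those 3 were dimmer on both arrays by small amounts. Hoxa6 gave 0.04 and 0.12. Hoxa5, needed in the lung and the neck vertebrae, gave -0.26 and 0.29, and Hoxa7 gave -0.41 and 0.19. In both of these the channel read in red was the brighter on each array.

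In the Hoxb cluster 4 of 8 tested genes were brighter on both arrays and 4 had opposite signs. Of all 21238 genes, 4230 were brighter on both and 12799 had opposite signs. No tested Hoxb gene was dimmer on both arrays, and the cluster median was 0.07. The arrays differed in sign here, with medians of -0.04 and 0.17. Hoxb6, a gene of the trunk mesoderm, had the largest absolute mean, 0.22 ± 0.14 (moderated SE, n = 2, limma adjusted p = 1), with ratios of 0.34 and 0.10. Its signals were 4046 against 3083 on array 1 and 4063 against 3937 on array 2, labelled Smad4cKO first. Hoxb7, which is used in the nephric duct and the ureteric epithelium, gave 0.31 and 0.11. Its signals were 8493 against 6960 and 8977 against 8189. Hoxb5, known from the enteric nervous system, gave 0.20 and 0.12, and Hoxb2, a gene of the hindbrain, 0.02 and 0.06. In Hoxb6, Hoxb7 and Hoxb5 both channels labelled Smad4cKO were above both labelled controls.

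The other 4 Hoxb genes were brighter in the red channel on both arrays. Hoxb9 had the smallest absolute mean (0.02 ± 0.17, moderated SE, n = 2, limma adjusted p = 1), from -0.26 on array 1 and 0.29 on array 2. Its signals were 1829 against 2111 and 2767 against 2326. Hoxb3 gave -0.21 and 0.38 by its brighter probe, while its other probe gave -0.16 and 0.00. Hoxb4, known from blood stem cells, gave -0.21 and 0.30, and Hoxb8, known from blood progenitors, -0.10 and 0.21. Among the 36 genes 12 had opposite signs, and in 10 of them the red channel was the brighter on both arrays. Among all genes with opposite signs, 6065 were brighter in red and 6734 in green. Whether dye or sex moves with these 10 genes cannot be told apart.

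The 7 tested Hoxc genes had a median of -0.12, with 3 dimmer on both arrays, 0 brighter and 4 of opposite sign. Hoxc11, a hindlimb gene, had the largest absolute mean, -0.26 ± 0.20 (moderated SE, n = 2, limma adjusted p = 1), but its arrays went opposite ways, -0.63 and 0.11. Its signals were low, 38.9 against 88.6 on array 1 and 72.8 against 61.3 on array 2, and its groups overlapped. Hoxc10, a gene of the lumbar spinal cord and hindlimb, gave -0.02 and -0.33. Hoxc9, which sets thoracic motor neuron identity, had the smallest absolute mean of the cluster (-0.09 ± 0.15, moderated SE, n = 2, limma adjusted p = 1). Its ratios were 0.08 and -0.26, from 2128 against 2052 and 2236 against 2571. Hoxc4 gave -0.20 and -0.19, and Hoxc8, a gene of the brachial spinal cord, gave -0.10 and -0.08. Hoxc5 gave -0.23 and 0.00 at low signals, from 39.1 to 71.7. Hoxc6 gave 0.17 and -0.41.

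The remaining 5 members could not be compared. Evx2, Hoxb1 (a hindbrain gene), Hoxb13 (a gene of the tail end and the prostate) and Hoxc13 (a gene of hair and nails) were not well above background in the same labelled group on both arrays. Hoxb13 was well above background only in the labelled control of array 1, at a signal of 66.04, against 6.01 in the labelled Smad4cKO. On array 2 both of its channels were near 7, at 7.65 and 7.16. Hoxc12 was left out because its spot on array 2 was marked as an outlier by the scanner software. That spot read 406 in the labelled Smad4cKO and 19.2 in the labelled control. On array 1 Hoxc12 read 94.7 and 76.5. All 36 tested genes were well above background in all 4 channels, as were 20563 of the 21238 genes tested in all.

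By paralogue number, the genes 1 to 3 had a median of -0.07 (7 genes), those 4 to 8 -0.03 (15 genes) and those 9 to 13 -0.17 (13 genes), while the median over all genes tested was 0.0047. The arrays differed in these medians: they were -0.17 on array 1 and -0.10 on array 2 for the genes 1 to 3, and -0.10 and -0.13 for those 9 to 13. For the genes 4 to 8 the sign itself differed, -0.10 against 0.10. In the planned class 9 to 13, 7 of 13 genes were dimmer on both arrays. Of the 9 genes numbered 10 to 13, a cut that was not planned, 7 were dimmer on both arrays and the median was -0.36. The 5 of them outside the Hoxd cluster (Hoxa10, Hoxa11, Hoxa13, Hoxc10 and Hoxc11) had a median of -0.17, but of -0.08 on array 1 and -0.10 on array 2 taken alone. The 4 Hoxd genes had a median of -0.55, with -0.73 and -0.62 on the arrays. Spearman's rho of paralogue number against mean ratio was -0.25 over the 35 Hox genes, -0.62 over the 9 Hoxd genes, -0.14 over 7 Hoxc genes, -0.02 over 11 Hoxa genes and 0.02 over 8 Hoxb genes. These values describe genes of the same 2 arrays, and carry no p. At group 9 all 4 clusters were near 0, with Hoxa9, Hoxb9, Hoxc9 and Hoxd9 between -0.09 and 0.05. At group 11 Hoxd11 stood at -0.67, Hoxc11 at -0.26 and Hoxa11 at -0.09.

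The windows of 250 bases before the annotated starts of Evx1, Hoxd12 and Hoxd11 are shown because these were the genes past 1.5-fold on both arrays. They are RefSeq sequence on GRCm38.p6, a different build from that of the probe positions, on the plus strand, in lower case with matches to GGCGCC in capitals. GGCGCC is a GC-rich SMAD element, and the SMAD palindrome GTCTAGAC, the posterior HOX and CDX site TTTATGG and the nuclear receptor element AGGTCA were searched too, on both strands. RefSeq windows were held for 24 members, 26 windows in all. GGCGCC was in 5 of 26 (19.2%), those of Hoxa10, Hoxd1, Hoxd3, Hoxd11 and Hoxd13, against 9.59% of 32851 windows of all genes. AGGTCA was in 6 of 26 (23.1%), all of them Hoxb4, Hoxc4 or Hoxd genes, against 14%. TTTATGG was in the Hoxd4 window alone (3.85%, against 2.43%), and GTCTAGAC in none (0.167% of all). No matches of different motifs overlapped. The Evx1 and Hoxd12 windows and 1 of the pair of Hoxd11 windows held none of these letters. A match describes the letters and is not a binding site.
Evx1, chr6:52313248-52313497: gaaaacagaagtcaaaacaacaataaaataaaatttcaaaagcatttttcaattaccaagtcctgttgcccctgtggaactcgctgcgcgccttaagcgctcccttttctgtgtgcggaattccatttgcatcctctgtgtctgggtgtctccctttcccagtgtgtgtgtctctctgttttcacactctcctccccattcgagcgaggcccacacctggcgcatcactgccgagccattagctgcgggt
Hoxd12, chr2:74674763-74675012: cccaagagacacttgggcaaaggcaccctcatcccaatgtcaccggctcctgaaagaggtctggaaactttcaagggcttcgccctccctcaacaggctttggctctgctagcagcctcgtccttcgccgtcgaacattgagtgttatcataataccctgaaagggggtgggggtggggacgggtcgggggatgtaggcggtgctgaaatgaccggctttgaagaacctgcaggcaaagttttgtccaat
Hoxd11, chr2:74679308-74679557: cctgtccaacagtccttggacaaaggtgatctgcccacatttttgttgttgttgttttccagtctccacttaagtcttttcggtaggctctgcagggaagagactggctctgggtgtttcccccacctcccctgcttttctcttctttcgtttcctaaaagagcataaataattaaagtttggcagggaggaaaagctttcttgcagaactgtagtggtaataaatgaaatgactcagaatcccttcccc
Hoxd11, chr2:74682073-74682322: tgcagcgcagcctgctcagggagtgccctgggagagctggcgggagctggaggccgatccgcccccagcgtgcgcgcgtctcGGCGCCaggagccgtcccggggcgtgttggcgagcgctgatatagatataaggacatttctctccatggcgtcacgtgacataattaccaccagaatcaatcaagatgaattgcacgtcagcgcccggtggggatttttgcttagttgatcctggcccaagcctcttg

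HOX proteins bind DNA together with other homeodomain proteins, such as MEIS proteins. Of 9 such cofactor genes tested, 0 were past 1.5-fold on both arrays, with a median of 0.03. Meis1 gave 0.21 and 0.22. Meis2 gave -0.73 and 0.01. Of 27 tested regulators of the clusters (CDX, Polycomb and trithorax proteins, retinoic acid receptors), 0 were past 1.5-fold on both arrays, with a median of 0.01. Cdx1 gave -0.72 and 0.09 at low signals, while Cdx2 and Cdx4 were not well above background. Of 16 tested noncoding and neighbour genes of the clusters, 0 were past 1.5-fold on both arrays, with a median of -0.03. Beside the Hoxd cluster, Lnpk gave -0.13 and 0.24 and Mtx2 -0.16 and 0.09, so neither flanking gene was dimmer on both arrays. Hoxa11os, antisense to Hoxa11, gave 0.29 and -0.67.

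Among 16 genes known as targets of posterior HOX proteins in kidney and urogenital mesenchyme, 6 were dimmer on both arrays and 5 brighter, with a median of -0.03. Gdnf, the ligand of Ret that HOX11 proteins act on in the kidney mesenchyme, gave -1.75 and -2.14. The Eph receptor gene Epha4 gave -1.06 and -0.62. In the other direction, the gene of a prostaglandin-degrading enzyme, Hpgd, had ratios of 1.58 and 1.57. These 3 were past 1.5-fold on both arrays, 2 dimmer and 1 brighter, and limma with adjustment called 0 of the 16. At an unadjusted p under 0.05 limma had 5 of the 16, against 1085 of all 21238 genes. Gdnf, Six2, Eya1 and Itga8 are also among the kidney markers below.

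Among markers of other cells that a dissected ureter could hold, the neural and the skeletal muscle lists were dimmer throughout, and the other lists were mixed. All 12 neural and neural crest markers were dimmer on both arrays (4 past 1.5-fold, median -0.67), with summed signals of 10236 in the labelled Smad4cKO against 16366 on array 1 and 11379 against 15075 on array 2. Of 12 kidney and nephric mesenchyme markers, 6 were dimmer on both arrays and 3 brighter (median -0.30), and Gdnf, Wt1 and Sall1 were past 1.5-fold. Their summed signals were 71958 against 76396 and 84562 against 86196. All 5 tested paraxial and skeletal muscle markers were dimmer on both arrays (1, Myh3, past 1.5-fold), with sums of 822 against 1357 and 1003 against 1535, while Myf5, Pax3 and Tbx15 were not well above background. Of 5 hindgut and bladder markers tested, 3 were dimmer on both arrays (median -0.39): Hoxa13 and Hoxd13, which are members here, and Isl1, which the neural list holds too, at -0.67 and -0.50. Their sums were 2750.0 against 3950.2 and 3247 against 4118, and Cdx2 and Vil1 were not well above background. Of 7 gonad and duct markers tested, 3 were dimmer on both arrays and 2 brighter, and Amh and Gata4 were not well above background. The part of these cells in the values of Evx1, Hoxd10 to Hoxd13, Hoxd4 and Hoxa13 was not tested.

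The tissue's own markers were present. Of 10 markers of ureteric mesenchyme and smooth muscle, 9 were brighter on both arrays, 5 of them past 1.5-fold, and 1, Tshz3 (-0.74 and -0.08), was dimmer on both (list median 0.96), with sums of 93477 against 57161 and 105951 against 64530. Of the 11 urothelial markers, 4 were brighter on both arrays, 1 (Upk3a, -0.17 and -0.45) dimmer and 6 of opposite sign, with a median of 0.07 and 0 past 1.5-fold. Their sums were 92395 against 74930 on array 1 and 88347 against 95892 on array 2.

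**Figure D4:**
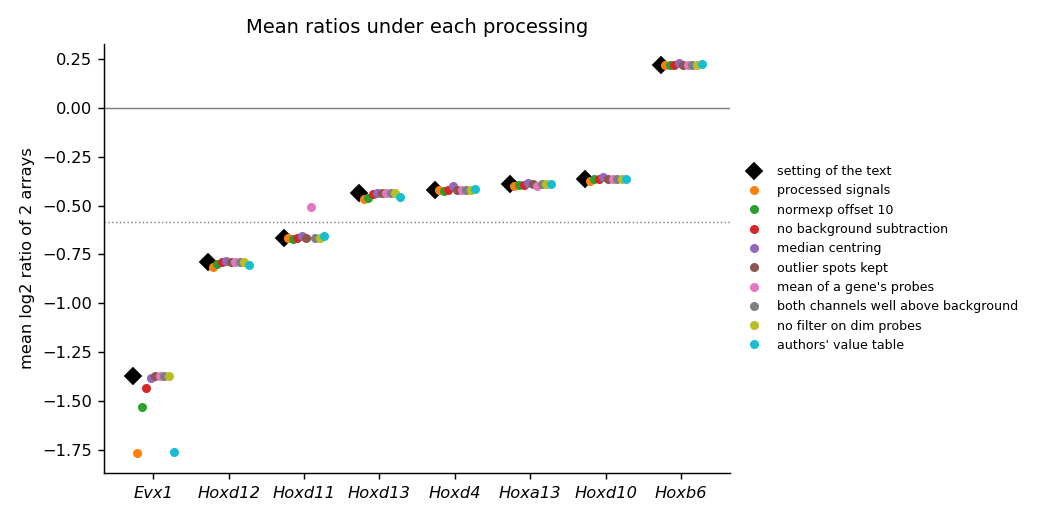
Mean log2 ratio of 8 Hox and Evx genes under each of the 10 ways of processing that keep both arrays; the diamond is the processing used in the text and the dotted line marks 1.5-fold dimmer. Evx1 ranges from -1.77 to -1.37 and Hoxd12 from -0.81 to -0.78, while Hoxd11 moves to -0.51 when its probes are averaged.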

How the data were processed

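Two-colour arrays (design of Agilent, 2 arrays on 1 slide) measured 200 ng of total RNA per channel after 1 round of T7 amplification, per the labels' protocols. Per the submitters' processing notes, Agilent Feature Extraction (version 10.7.3.1) wrote the deposited scanner files, which hold an intensity per spot and channel. Per the file headers, they also hold a log10 ratio of red over green. The values in the authors' deposited table are signed folds, treated as a score: its correlation with the processed ratio of labelled Smad4cKO over labelled control was -0.777 and -0.768, and each column's median was 1. Its scale was found by that comparison, and its making is not described in the sources used.

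Normexp (offset 50) corrected the mean signals for background, and loess normalized them within each array, with control spots at weight 0. Outlier spots (237 and 221 of 43020) took part in these steps and were left out afterwards. Repeated spots were averaged. The 26670 probes tested had 1 labelled group, the same on both arrays, well above background, and the brightest of them stood for its gene. Log2 ratios were tested against 0 with limma 3.58.1 in R 4.3.3 (1 residual and 4.89 prior degrees of freedom, Benjamini-Hochberg over 21238 genes, threshold 0.05). The SE is limma's moderated SE, set largely by the spread over all genes. The procedure was tested on simulated data. Probe coordinates are those of the files (mm9).

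Tested members are named, except that 1 member and 1 gene of another list are not reported here. Full statistics go to the Evx genes, members past 1.5-fold on both arrays, and those with the largest and smallest absolute mean in each cluster; Hoxd4, Hoxd10 and Hoxd13 were added after their values were seen. The members, gene lists and tests were chosen with earlier results of these data known.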

Additional observations from a re-analysis of the deposited data

How the results depend on the processing

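Over the 10 ways of processing that kept both arrays, all 36 genes kept the sign of their mean. The processing of the text is among the 10. Keeping outlier spots or changing the filter on dim probes left the ratios of the 36 genes unchanged. Averaging probes could move only genes with more than 1 tested probe. The 12 genes of opposite sign turn on 1 array by construction when the other is left out. Limma called 2 members with processed signals (Evx1 and Hoxd12, adjusted p = 0.0373), where 1.43% of all genes passed. With a normexp offset of 10 limma called 1 (Evx1, adjusted p = 0.0144), against 0.311% of all genes. With the authors' deposited table limma called 1 (Evx1, adjusted p = 0.00274), against 0.702%. An intensity trend with robust variances gave 3 (Evx1, Hoxd11 and Hoxd12), where 3.32% of all genes passed. The count of members dimmer on both arrays was 5 at a lower threshold (control signal 25% above the other), adding Hoxa13 and Hoxd4. Of all 21238 genes, 415 met that threshold. At 2-fold the count was 1 (Evx1), against 25 of all genes. Under processed signals, median centring, the mean of probes and the authors' table, 99 to 199 of all genes were 1.5-fold dimmer on both arrays. There the count of members was 2, without Hoxd11. Without replicate 1 the count of members was 4, since array 2 alone had to pass, and 242 of all 21238 genes passed. Array 2 added Hoxd10. Without replicate 2 the count was 5, with array 1 alone, where 684 of all genes passed. Array 1 added Hoxc11 and Hoxd13. Without a replicate the cluster medians were -0.080 to -0.039 for Hoxa, -0.04 to 0.17 for Hoxb, whose sign thus differed between the arrays, -0.19 to -0.10 for Hoxc and -0.32 to -0.30 for Hoxd. The cause of these shifts was not tested. Every ratio is already paired within its array, so no further replicate block was fitted. Low signal over background limits Hoxc5, Hoxc11 and Cdx1.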
